A study of Mus musculus with 6 samples.

Results

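The enzymes that carry glucose carbon from fructose phosphate to pyruvate were followed in CD8+ T cells taken from tumor and from spleen. They were chosen by name, as the rows of the gene count table whose Ensembl identifiers carry 10 mouse gene symbols, from Gpi1 and Aldoa to Pkm. All 10 symbols were found, on 11 of the 55335 rows, because Aldoa names 2 gene models. Tumor-infiltrating P14 cells (TIL, 3 libraries) were set against P14 cells from the spleens of tumor-bearing mice (3 libraries). P14 cells are CD8+ T cells with a transgenic receptor for the GP33-41 peptide of a virus, and the labels give P14 TCR transgenic as the genotype of both groups. The strain was C57BL/6 and the age 10 weeks in both groups. Donor P14 cells were given on day 11 after implantation of B16-GP33-41, a mouse melanoma line that carries this peptide, and both groups were later sorted by flow cytometry. Tumor suspensions, unlike spleens, first passed a Percoll gradient, so sample handling and tissue cannot be told apart. The codes of the tumor libraries share 1 ending and those of the spleen libraries another. If these endings mark a batch, it and the tissue cannot be told apart either.

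Glycolysis is the chain of cytosolic reactions that splits glucose into pyruvate with a net gain of ATP. Glucose phosphate isomerase and the steps before aldolase prime the sugar, aldolase cuts it into a pair of triose phosphates, and the steps from glyceraldehyde phosphate dehydrogenase to pyruvate kinase recover ATP and NADH. Activated CD8+ T cells are known for rapid glycolysis with lactate release, and resting ones for relying more on oxidation in mitochondria. Several of these enzymes are made from more than 1 gene: aldolase A and enolase 1 are the widespread forms, aldolase C is best known from brain and enolase 3 from muscle.

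Library totals were 36198681 to 38263483 counts in TIL and 35095261 to 37650999 counts in spleen. Markers of CD8 T cells summed to 3934 to 4122 CPM (the count scaled by the library total) in TIL and to 4557 to 4619 CPM in spleen, led by Lck at 805 CPM in TIL and by Cd8b1 at 1174 CPM in spleen. Of these 8 markers, 1 was called higher and 3 were called lower in TIL, beside 34.8% and 35.9% of all tested genes. All 10 B cell markers were called lower in TIL, with sums of 11.0 to 13.4 CPM in TIL and 577 to 590.5 CPM in spleen. Cd79b led them in TIL at 7.43 CPM and Cd79a in spleen at 118 CPM, while Cr2 was at 0 in all TIL libraries. All 12 myeloid markers were called lower, with sums of 133 to 141 CPM in TIL, led by Cst3 at 59.5 CPM, and 508 to 520.4 CPM in spleen, led by Itgax at 151 CPM. Melanoma markers summed to 23.3 to 24.9 CPM in TIL and 33.2 to 33.7 CPM in spleen. Of their 5 tested members 2 were called higher and 1 lower, and they were led by Gpnmb at 12.2 CPM in TIL and by Pmel at 19.8 CPM in spleen. Mlana, Dct, Tyrp1 and Trpm1 were low in both tissues and had more counts in TIL. Mlana had 8, 6 and 5 counts in TIL and 0, 0 and 2 counts in spleen. Dct had 16, 18 and 17 counts in TIL and 0, 1 and 0 counts in spleen. Tyrp1 had 31, 24 and 9 counts in TIL and 0 in all spleen libraries. Trpm1 had 56, 67 and 63 counts in TIL and 8, 5 and 9 counts in spleen. Other markers of the list did not all follow. Mitf had 10, 18 and 13 counts in TIL and 18, 15 and 32 counts in spleen. Tyr had 3, 2 and 0 counts in TIL and 1, 1 and 0 counts in spleen. Sox10 had 9, 7 and 0 counts in TIL and 1, 0 and 1 counts in spleen. Slc45a2 had 4, 1 and 2 counts in TIL and 0 in all spleen libraries. The 2 called higher were Dct and Trpm1, while the summed level, led by Gpnmb and Pmel, was lower in TIL. Red cell markers summed to 247 to 274 CPM in TIL and 207 to 210.1 CPM in spleen, led by Hba-a1 at 78.5 CPM in TIL and 65.7 CPM in spleen, with 5 of 6 called higher and 1 lower. The part of these other cells in the enzyme levels was not tested.

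All 10 enzymes were higher in TIL than in spleen, by 2.38-fold for Gpi1 up to 10.3-fold for Tpi1. All 11 rows passed the filter on low counts. With edgeR's quasi-likelihood test over 19783 genes, 10 rows were called higher at an adjusted p under 0.05, 0 were called lower, and the second Aldoa model was not called. Of all tested genes, 34.8% were called higher and 35.9% were called lower, so a call in itself was common in this comparison. Against a null of 2-fold, 10 of the 11 rows passed, while 5.87% of the tested genes did. No spleen library reached any TIL library for the same 10 rows, an order that 35.1% of tested genes showed. The median log2 fold change was 2.09 over the 11 rows and -0.02 over all tested genes. No row was lower at an unadjusted p under 0.05 (0 of 11), and DESeq2 and limma-voom each called 0 lower as well. In bulk RNA, a change in the number of cells that carry a transcript and a change of the RNA per cell cannot be told apart. The labels do not place the replicates in separate mice, so these p-values measure the spread between libraries, which may be technical.

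**Figure D1:**
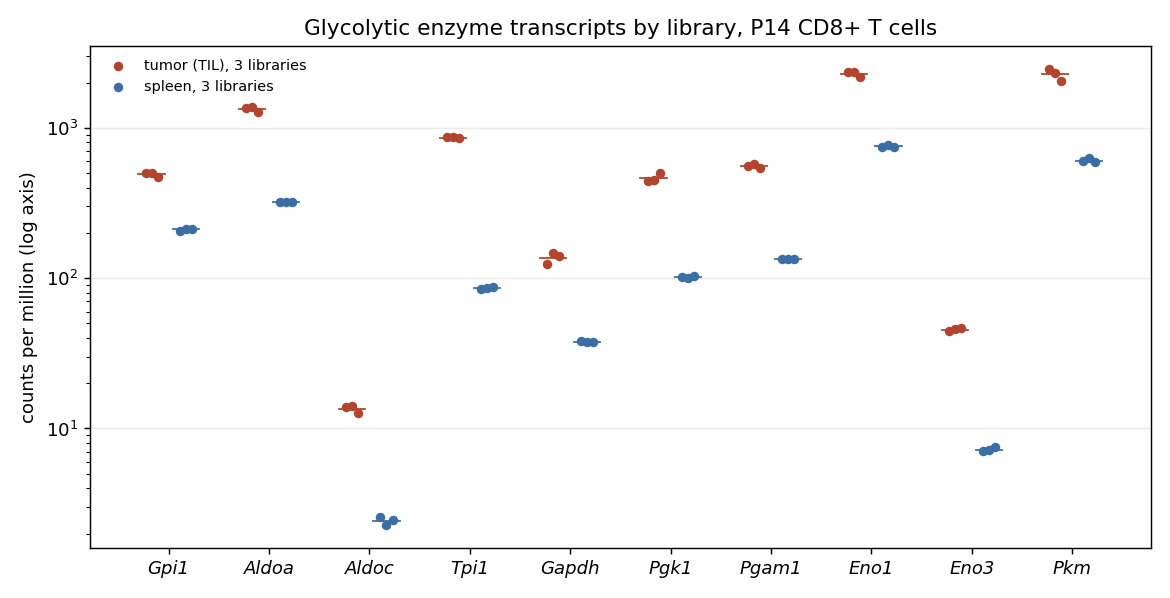
CPM (log axis) of the 10 enzyme genes in each library, with TIL libraries in red on the left of each gene, spleen libraries in blue on the right, and bars at the means. The 3 TIL points lie above the 3 spleen points for every gene shown, with the widest gap at Tpi1 (863 against 85.8 CPM).

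Many of these genes have near-identical copies elsewhere in the genome, and reads of 50 bases from such stretches can match more than 1 place. The share of a gene's coding sequence that recurs in other annotated transcripts was counted in words of 50 bases. It was 100% for Pgam1, 99.3% for Pgk1, 93.5% for Gapdh, 75.1% for Eno1, 53.6% for Pkm, 36.0% for Gpi1, 16.8% for Aldoa and 13.7% for Tpi1. It was 0 for Aldoc, Eno3 and the second Aldoa model, whose counts share no coding word with another gene. A stretch of Pgk1 and of its pseudogene Gm5537 on chromosome 3 is printed because the 2 are the same letter for letter, and stretches of the aldolase and enolase pairs because they differ enough for reads to be told apart. Each runs over coding bases 301 to 360 of the first-named gene of the pair, 5′ to 3′, from GENCODE M21 transcripts, with the bases that differ within a pair in capitals.
Pgk1: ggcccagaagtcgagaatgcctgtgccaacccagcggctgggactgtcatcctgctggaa
Gm5537: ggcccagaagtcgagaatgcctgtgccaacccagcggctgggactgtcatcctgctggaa
Aldoa: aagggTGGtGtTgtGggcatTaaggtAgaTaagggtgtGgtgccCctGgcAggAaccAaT
Aldoc: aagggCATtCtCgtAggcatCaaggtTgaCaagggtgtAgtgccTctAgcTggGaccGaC
Eno1: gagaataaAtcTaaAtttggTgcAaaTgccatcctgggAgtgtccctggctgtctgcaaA
Eno3: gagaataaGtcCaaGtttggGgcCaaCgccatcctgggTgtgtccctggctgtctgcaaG
The Pgk1 pair has 0 differences here, the aldolase pair 16 and the enolase pair 8. Over their whole aligned coding sequences Aldoa and Aldoc were 75.9% identical and Eno1 and Eno3 76.7%. The sources used here do not say how the counting treated such reads. Some copies on different chromosomes had near-equal counts in every library, so 1 read may have been counted at more than 1 place. Ratios of a copy and of its gene may then come from the same reads. Levels of the genes with copies are uncertain, as is their order.

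Gpi1 (ENSMUSG00000036427.5, mm10 chr7:34201330-34230336) encodes glucose phosphate isomerase, which turns glucose phosphate into fructose phosphate ahead of aldolase. It had 498, 504 and 473 CPM in the TIL libraries and 207, 212 and 213 CPM in the spleen libraries. The groups did not overlap, and Gpi1 had the smallest rise of the 10 enzymes called higher. Its log2 fold change was 1.25 (SE 0.05, adjusted p = 4.47e-09 with edgeR), and the adjusted p against 2-fold was 0.000679. Scaled to 12 genes used as expression standards, the 2-fold test no longer passed for Gpi1 (adjusted p = 0.055 with edgeR), while its log2 fold change was 1.13. Its pseudogene copy Gm1840 had a TIL over spleen ratio of 2.36 in mean CPM, beside 2.33 for Gpi1.

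Aldoa (ENSMUSG00000030695.16, chr7:126795234-126800751) encodes aldolase A, which cleaves fructose bisphosphate. Its levels were 1364, 1382 and 1285 CPM in TIL and 322, 322 and 324 CPM in spleen. All TIL libraries stood well above all spleen libraries, and the 3 spleen libraries differed by under 1% of their mean (coefficient of variation 0.331%). The log2 fold change was 2.09 (SE 0.06, adjusted p = 1.01e-10 with edgeR), a fold of 4.25. The second Aldoa model (ENSMUSG00000114515.2, chr7:126800790-126809108) lies beside it and held few reads, 19, 18 and 13 counts in TIL and 9, 15 and 18 counts in spleen. Its libraries overlapped between tissues (log2 fold change 0.26, SE 0.34, adjusted p = 0.511 with edgeR). Fam57b lies over Aldoa on the opposite strand and had 2615, 2318 and 1933 counts in TIL and 659, 614 and 598 counts in spleen. The overlap was read from the gene ends, not from exons. Whether the counting used strand is not stated, so reads from any exon bases that both genes share may not be told apart.

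Aldoc (ENSMUSG00000017390.15, chr11:78322968-78327781) encodes aldolase C. It was rare in both tissues, with 13.9, 14.03 and 12.6 CPM in TIL and 2.57, 2.28 and 2.45 CPM in spleen. Every TIL library was higher than every spleen library, and the log2 fold change of 2.50 (SE 0.11, adjusted p = 4.78e-09 with edgeR) exceeded that of Aldoa in size. Scaled by exon length, Aldoa made up 99.11% ± 0.0178 of the aldolase transcripts in TIL and 99.33% ± 0.0341 in spleen (SD, n = 3 each). Aldoc thus held 0.889% of aldolase transcripts in TIL and 0.669% in spleen. The shares did not overlap between tissues (two-sided exact permutation p = 0.1, the smallest that 3 against 3 libraries allow). Across 22 such shares and ratios, 20 were at this smallest value, which became 0.11 after Benjamini-Hochberg adjustment.

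Tpi1 (ENSMUSG00000023456.15, chr6:124810586-124814296) encodes triosephosphate isomerase, which interconverts the pair of triose phosphates so that both can go on to pyruvate. It showed the largest rise of the 11 rows. Its levels were 870.0, 867 and 851 CPM in TIL and 84.2, 85.9 and 87.2 CPM in spleen, so the libraries of each tissue were close together and the tissues far apart. The fold was 10.3 (log2 3.36, SE 0.06, adjusted p = 2.67e-12 with edgeR), and 0.915% of tested genes had a higher fold. Its pseudogene copy Tpi-rs11 had 6705, 7216 and 6366 counts in TIL and 651, 677 and 623 counts in spleen, a ratio of 10.2 in mean CPM. Tpi1 itself had a ratio of 10.1 on that scale, and the log2 fold change was 3.37 with the counts of its copies added. Spsb2, which touches its end on the opposite strand, ran the other way, with 93, 94 and 100 counts in TIL and 207, 175 and 140 counts in spleen.

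Gapdh (ENSMUSG00000057666.18, chr6:125161715-125166467) encodes glyceraldehyde phosphate dehydrogenase, the step that makes NADH. It had 123, 146 and 142 CPM in TIL and 38.0, 37.6 and 37.4 CPM in spleen. The TIL libraries were the more spread, but all lay above the spleen libraries (log2 fold change 1.89, SE 0.07, adjusted p = 9.35e-10 with edgeR). Gapdh is often used as a constant standard in expression work. The 12 other such standards had log2 fold changes of -0.41 for B2m up to 0.83 for Rplp0, with a median of 0.03. Of these standards 6 were called higher and 5 lower with edgeR, beside 34.8% and 35.9% of all tested genes. The highest rose by 1.77-fold. With libraries scaled to these standards, the median log2 fold change of all tested genes was -0.14, against -0.02 with TMM scaling, and changes of that size depend on the scaling. Gapdh has 221 copies by the shared-word count, 212 of them pseudogenes. The rows of the copies together held 1.27 to 1.52 times the counts of Gapdh in TIL and 1.35 to 1.61 times in spleen. The same reads may be counted in more than 1 of these rows, so how many reads its sequence took in all is not known.

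Pgk1 (ENSMUSG00000062070.12, chrX:106187100-106203699) encodes phosphoglycerate kinase, the first step of the chain that yields ATP. Its levels were 446, 452 and 503 CPM in TIL and 101, 99.6 and 103 CPM in spleen. The third TIL library was the highest of the group, yet the groups were far apart (log2 fold change 2.23, SE 0.06, adjusted p = 8.82e-11 with edgeR, 4.70-fold). The pseudogene Gm5537 on chromosome 3 held 17596, 18886 and 18835 counts in TIL and 3876, 3935 and 3793 counts in spleen. Pgk1 itself held 16250, 17289 and 18221 counts in TIL and 3702, 3751 and 3618 counts in spleen, which is below its pseudogene in every library. A further copy, Pgk1-rs7 on chromosome 12, had 17595, 18886 and 18834 counts in TIL and 3876, 3935 and 3793 in spleen, differing from Gm5537 by at most 1 count in a library. Their ratios of TIL to spleen stood beside that of Pgk1, with 4.48 to 4.70 over the 5 copies and 4.61 for the gene.

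Pgam1 (ENSMUSG00000011752.7, chr19:41911923-41918660) encodes phosphoglycerate mutase, which moves the phosphate before enolase acts. It had 559, 572 and 540 CPM in TIL and 133, 133 and 134 CPM in spleen. The groups did not overlap (log2 fold change 2.09, SE 0.05, adjusted p = 8.05e-11 with edgeR), and the size was the same as for Aldoa to 2 decimals. All of its coding words recur elsewhere, and its pseudogene Pgam1-ps2 held 13300, 13118 and 11076 counts in TIL and 3053, 3171 and 2934 in spleen. Of the other genes for this step, Pgam2, the muscle form, was lower in TIL at 0.856 ± 0.149 CPM against 2.18 ± 0.0921 CPM in spleen (SD, n = 3 each; log2 fold change -1.31, adjusted p = 6.61e-05 with edgeR). Bpgm, which makes bisphosphoglycerate from the same intermediates, was also lower in TIL, at 7.43 against 11.6 CPM (log2 fold change -0.61, adjusted p = 0.000125 with edgeR).

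Eno1 (ENSMUSG00000063524.13, chr4:150236721-150248879) encodes enolase 1, which forms phosphoenolpyruvate. It had 2354, 2337 and 2164 CPM in TIL and 751, 765 and 742 CPM in spleen. The tissues were separate in all libraries, and the rise of 3.10-fold was the second smallest of those called (log2 1.63, SE 0.06, adjusted p = 8.33e-10 with edgeR). Eno1b, a copy named as a gene of its own, had 91105, 95345 and 83730 counts in TIL and 29565, 30607 and 27792 counts in spleen, more than Eno1 in every library. Its log2 fold change was also 1.63.

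Eno3 (ENSMUSG00000060600.15, chr11:70657202-70662513) encodes enolase 3 and shares no coding word with another gene. It had 44.5, 45.7 and 46.4 CPM in TIL and 7.03, 7.14 and 7.49 CPM in spleen, with all TIL libraries far above all spleen libraries. Its fold of 6.43 (log2 2.68, SE 0.07, adjusted p = 1.05e-10 with edgeR) was the second largest of the 11 rows, after Tpi1. Per exon length, Eno3 made up 5.81% ± 0.356 of enolase transcripts in TIL and 2.88% ± 0.126 in spleen, while Eno1 made up 94.1% ± 0.349 in TIL and 97.1% ± 0.145 in spleen (SD, n = 3 each). By counts without length scaling, Eno1 made up 97.99% in TIL and 98.99% in spleen, so the difference in its share was -2.92 percentage points per length and -0.996 by counts, and the size of the shares rests on the length used. These shares did not overlap (two-sided exact permutation p = 0.1 for each, the smallest possible, 0.11 after adjustment over the 22). Eno2, best known from neurons, was near the lower limit at 1.20 CPM in TIL and 0.467 CPM in spleen and was called higher (log2 fold change 1.38, adjusted p = 0.00168 with edgeR). Eno4 had a mean of 0.0270 CPM in TIL and 0.0275 CPM in spleen and was not tested.

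Pkm (ENSMUSG00000032294.17, chr9:59656368-59679375) encodes the muscle-type pyruvate kinases, which make pyruvate and ATP. It had 2475, 2312 and 2054 CPM in TIL and 601, 627 and 589 CPM in spleen. The spread between TIL libraries was the widest of the called enzymes, with a coefficient of variation of 9.30%, and still no library overlapped (log2 fold change 1.94, SE 0.08, adjusted p = 1.88e-09 with edgeR). Counts per gene do not separate its splice forms, PKM1 and PKM2. Gm49759, annotated within Pkm on the same strand, had 8833, 8478 and 7013 counts in TIL and 2278, 2374 and 2025 in spleen. Reads from any exon bases that these 2 genes share cannot be told apart. Pklr, the liver and red cell form, had 0 counts in all TIL libraries and 14, 7 and 16 counts in spleen and was not tested. A count of 0 allows up to 3 counts per library, or at most 0.0829 CPM in TIL, counting error only.

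**Figure D2:**
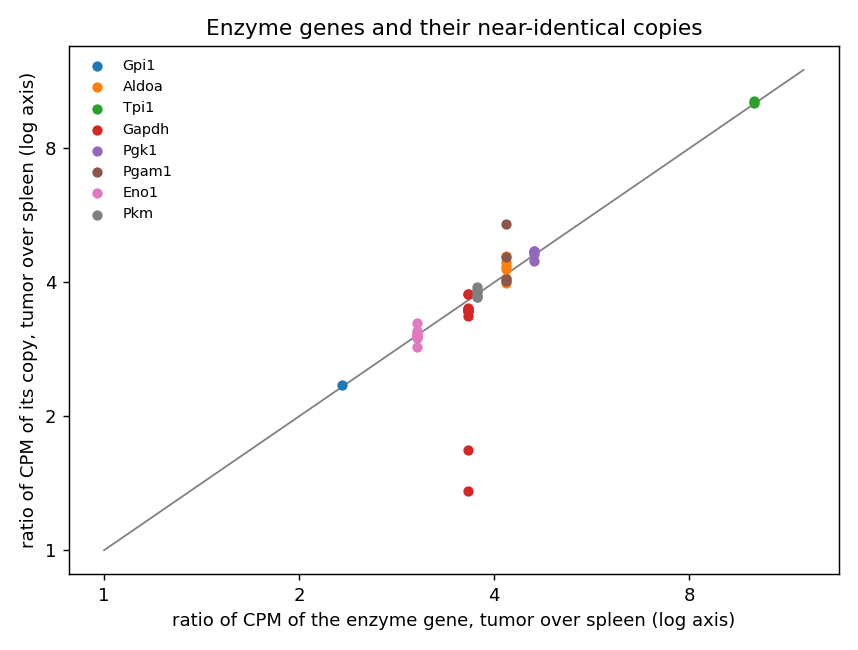
Each point is 1 copy with at least 100 counts over the TIL libraries, with the ratio of mean CPM (TIL over spleen, log axes) of the copy on the vertical axis and that of its enzyme gene on the horizontal axis; the line marks equal ratios. Copies of Tpi1 lie at 10.1 and 10.2 and those of Pgk1 at 4.48 to 4.70, near the line, while 2 of the 13 copies of Gapdh lie far below it at 1.36 and 1.68.

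Among copies with at least 100 TIL counts, a limit set on the higher group, 3000002C10Rik and Gm5069 are the 2 copies of Gapdh at 1.36 and 1.68. Only 13 of the 221 copies of Gapdh reached that limit, and over all its copies with spleen counts the ratio ran from 0.484 to 15.7 beside 3.64 for the gene. Within the limit, the ratio was 3.99 to 4.58 for the 6 of Aldoa beside 4.17 for the gene, and 3.71 to 3.90 for the 7 of Pkm beside 3.77. It was 2.87 to 3.24 for the 9 of Eno1 beside 3.04 for the gene, and 4.03 to 5.41 for the 4 of Pgam1 beside 4.17. With the copies' counts added to each gene, 10 of 11 rows were called higher. The log2 fold changes were then 1.26 for Gpi1, 2.11 for Aldoa, 1.82 for Gapdh, 2.26 for Pgk1, 2.08 for Pgam1, 1.64 for Eno1 and 1.95 for Pkm. The copies of Eno1 held 2.41 to 2.44 times its counts in all libraries, so adding them could hardly move its fold. For Gapdh this ran from 1.27 to 1.61. The setting thus does not test how reads with several matches were counted. The 11 rows held 0.848% ± 0.0362 of all counts in TIL and 0.226% ± 0.0028 in spleen (SD, n = 3 each), a ratio of 3.75. The rows of the copies held 0.983% of counts in TIL and 0.290% in spleen, a larger share than the rows of the enzyme genes. Copies such as Gm5537 and Pgk1-rs7 had near-equal counts in every library. The same reads may thus be counted in several of these rows, so the share of the copies may not be separate from that of the genes.

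The order of the levels within a tissue was read per exon length, as TPM, the length-scaled share of a library. In TIL it ran from Aldoa at 654 ± 32.0 TPM through Pkm at 646 ± 65.7 TPM and Eno1 at 602 ± 33.9 TPM to Tpi1 at 444 ± 9.95 TPM, Pgam1 at 398 TPM and Pgk1 at 294 TPM. The ranges of Aldoa and Pkm overlapped, with Aldoa above Pkm in 2 of 3 libraries. The ranges of Pkm and Eno1 overlapped too, but within each library Pkm was above Eno1 (3 of 3). Gpi1 followed at 108 TPM, Gapdh at 47.0 TPM, Eno3 at 37.1 TPM and Aldoc at 5.87 TPM. In spleen, Eno1 came first at 220.1 ± 7.55 TPM, then Pkm at 190.4 ± 9.77 TPM, Aldoa at 174 ± 2.81 TPM and Pgam1 at 106 ± 1.70 TPM (SD, n = 3). Below them were Pgk1 at 71.0 TPM, Gpi1 at 51.4 TPM, Tpi1 at 49.0 TPM, Gapdh at 14.3 TPM, Eno3 at 6.53 TPM and Aldoc at 1.17 TPM, and no neighbours in that order overlapped. With the length of the principal transcript in place of all exons, Eno1 led in TIL too. In spleen, Gpi1 then stood above Pgk1, at 73.1 against 55.5 CPM per kilobase. The order thus rests in part on the length used, at the top and below it.

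Tpi1 was the gene whose place moved most, place 4 in TIL and place 7 in spleen. It made up 13.7% ± 0.293 of the summed per-length level in TIL and 5.54% ± 0.105 in spleen, without overlap. Its level was 4.12 ± 0.0926 times that of Gpi1 in TIL and 0.953 ± 0.0054 times in spleen (SD, n = 3; two-sided exact permutation p = 0.1, the smallest possible, 0.11 after adjustment). Eno1 took the opposite course, with 18.6% ± 0.250 of the sum in TIL and 24.9% ± 0.205 in spleen, and Gpi1 made up 3.33% in TIL and 5.81% in spleen. Pgam1 and Pkm kept parts that overlapped between tissues, 12.3% in TIL and 11.98% in spleen for Pgam1, and 19.9% in TIL and 21.5% in spleen for Pkm.

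**Figure D3:**
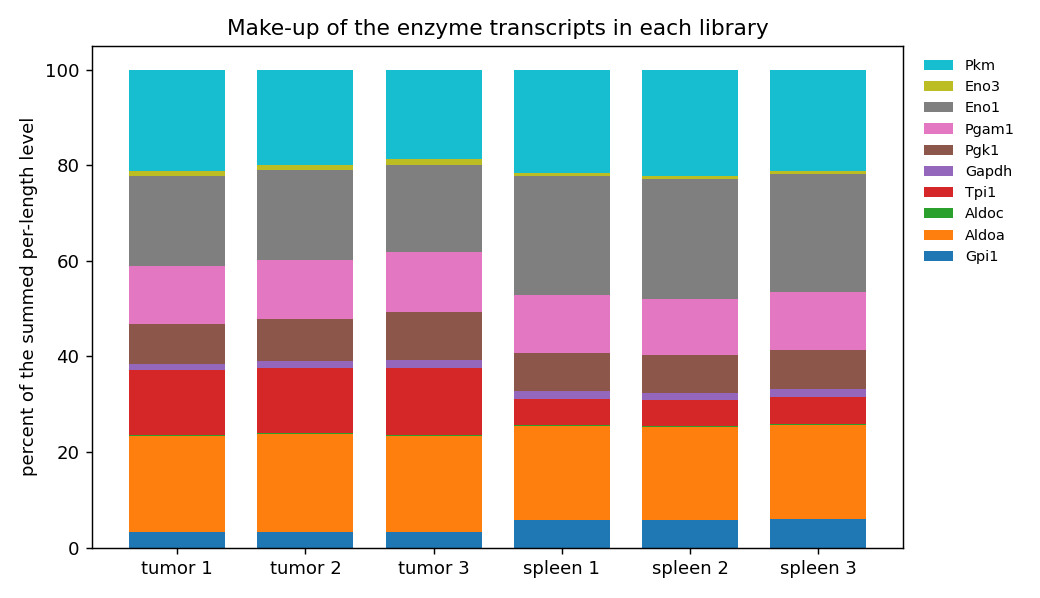
Percent of the summed per-length level of the enzyme transcripts taken by each gene, stacked, in the 3 TIL libraries (left) and the 3 spleen libraries (right). The red Tpi1 band is wider in TIL (13.7%) than in spleen (5.54%), while the grey Eno1 band is narrower (18.6% against 24.9%).

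The TIL libraries differed among themselves in a shared way for some genes and not for others. The third TIL library was the lowest of its group for Gpi1, Aldoa, Aldoc, Tpi1, Pgam1, Eno1 and Pkm but the highest for Pgk1 and Eno3, and Gapdh was lowest in the first. Between spleen libraries the coefficient of variation ran from 0.329% for Pgam1 to 5.91% for Aldoc among the 10 enzymes called. In TIL it ran from 1.20% for Tpi1 to 9.30% for Pkm.

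Most tested genes before and after these steps were also called higher in TIL, beside 34.8% called higher and 35.9% called lower of all tested genes. Of the 9 tested genes for glucose entry and the first steps, 6 were higher and 1 lower in TIL, with a median log2 fold change of 0.78. Pfkl and Pfkp, subunits of phosphofructokinase, were higher (log2 2.12, SE 0.08, and log2 1.05, SE 0.05). Hk2, an inducible hexokinase added after its values were seen, was higher at 29.4 CPM in TIL and 4.85 CPM in spleen (log2 2.63, SE 0.15), and Hk3, a hexokinase of myeloid cells, was lower (log2 -2.79, SE 0.15). Of the 6 genes for lactate and pyruvate handling, 4 were higher, and Mpc1 and Mpc2, subunits of the mitochondrial pyruvate carrier, did not pass (log2 0.13 and 0.04). Slc16a3, a lactate exporter, had 229 ± 16.0 CPM in TIL and 11.9 ± 0.285 CPM in spleen (log2 4.30, SE 0.08, adjusted p = 6.07e-12 with edgeR). Ldha, the lactate dehydrogenase subunit that follows Pkm, had 2441 CPM in TIL and 801 CPM in spleen (log2 1.64, SE 0.05).

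**Figure D4:**
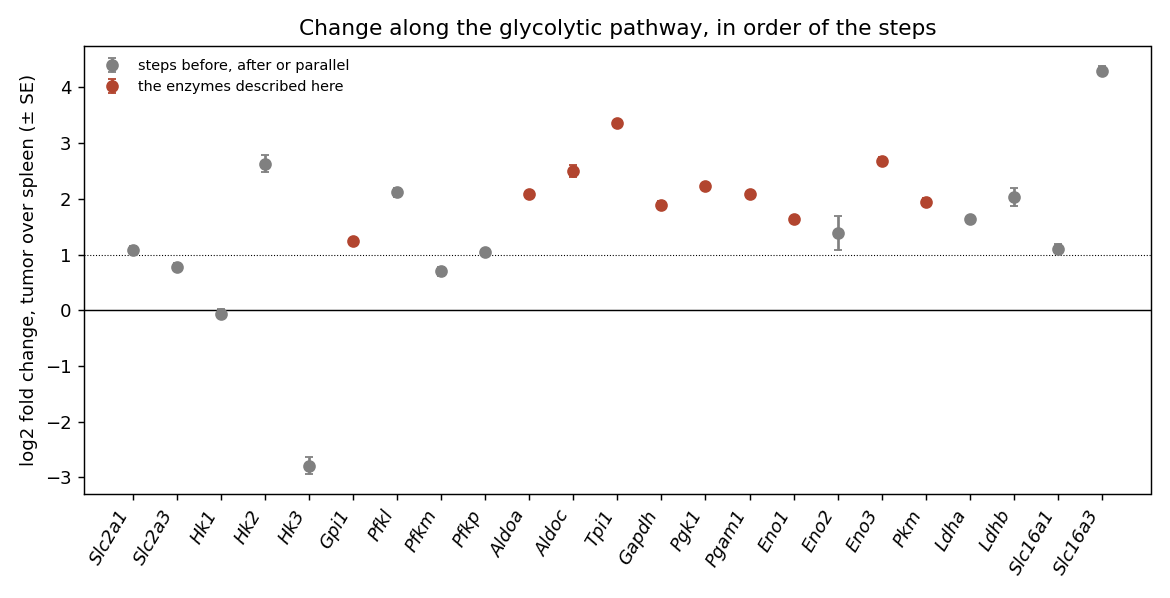
Log2 fold change (TIL over spleen, ± SE) of tested genes in the order of the pathway, with the 10 enzymes in red, other genes in grey, and a dotted line at 2-fold. All red points lie above the dotted line, from 1.25 for Gpi1 to 3.36 for Tpi1, while grey points range from -2.79 for Hk3 to 4.30 for Slc16a3.

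Genes of the side branches were called in both directions, as were 34.8% (higher) and 35.9% (lower) of all tested genes. Of 7 pentose phosphate enzymes, 3 were higher and 1 lower, with a median of 0.12 on the log2 scale. Tkt (transketolase) was higher at 0.78, Pgd at 0.19 and Taldo1 (transaldolase) lower at -0.28, all at an adjusted p under 0.05. In the glycerol phosphate branch, which leaves at the triose step, the mitochondrial Gpd2 was higher (log2 1.27, SE 0.07) and the cytosolic Gpd1l lower (log2 -0.83, SE 0.08). Gpd1, the other cytosolic form, was lower too, with a mean of 0.0266 CPM in TIL and 1.18 CPM in spleen. Both tested gluconeogenic genes, Pck2 (log2 0.70) and G6pc3 (log2 0.60), were higher, and the other 4 listed were not tested. Among the other genes for the same steps, 4 of 7 tested were higher and 2 lower. Those higher were Aldoart1 (log2 2.15) and Aldoart2 (log2 1.92), testis retrogenes of Aldoa, with Eno1b and Eno2. Those lower were Pgam2 and Bpgm. Aldoart1 is also a copy of Aldoa by shared coding words, and Eno1b is a copy of Eno1. Whether their rise is separate from that of Aldoa and Eno1 was not tested. Gapdhs, the sperm form, had 0.710 CPM in TIL and 0.730 CPM in spleen (adjusted p = 0.973 with edgeR).

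Of 8 genes known to regulate these enzymes or the splicing of Pkm, 4 were higher and 2 lower. Of all tested genes, 34.8% were called higher and 35.9% lower, so these counts say little about the list. Hif1a, the oxygen-regulated subunit of hypoxia-inducible factor, had 613 ± 50.2 CPM in TIL and 153 ± 8.04 CPM in spleen (log2 2.03, SE 0.07, adjusted p = 4.70e-10 with edgeR). Myc, which encodes a growth-promoting transcription factor, had 355 ± 16.5 CPM in TIL and 159 ± 3.76 CPM in spleen (log2 1.19, SE 0.06, adjusted p = 1.24e-08 with edgeR). Arnt, the partner of Hif1a, was lower (log2 -0.22), as was Epas1 (log2 -0.45), at adjusted p = 0.0103 and 0.0117 with edgeR.

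Hypoxia-inducible factors are known to bind DNA at the letters ACGTG or GCGTG, and MYC at CACGTG. These letters were sought on both strands from 250 bases before to 50 bases after each RefSeq start (GRCm38.p6). All 10 enzymes were matched, with 16 windows. ACGTG or GCGTG stood in a window of 8 of 10 enzymes, all but Gpi1 and Tpi1, and in 46.7% of 27025 genes. By window it was 12 of 16 against 43.8%, but some windows of Aldoa and of Eno1 overlap and hold the same match. The enzymes also had more windows per gene, 16 for 10 against 32851 for 27025, which raises the share of genes with a match. ACGTG stood in 6 of 10 enzymes and 21.8% of genes, and GCGTG in 5 of 10 and 35.2%. CACGTG, which holds ACGTG, stood in 0 of 10 enzymes and 8.09% of genes. Tpi1, with the largest rise, and Gpi1, with the smallest, had no match in their windows, and a match is a description of letters only. The 250 bases before the start are printed, gene strand 5′ to 3′, for Pgk1 (chrX:106186850-106187099, plus strand), Pgam1 (chr19:41911621-41911870, plus strand), Eno3 (chr11:70656926-70657175, plus strand) and Gpi1 (chr7:34230337-34230586, minus strand), which lie outside the annotated gene bodies. They show windows with and without a match, and capitals mark ACGTG or GCGTG or their reverse complements.
Pgk1: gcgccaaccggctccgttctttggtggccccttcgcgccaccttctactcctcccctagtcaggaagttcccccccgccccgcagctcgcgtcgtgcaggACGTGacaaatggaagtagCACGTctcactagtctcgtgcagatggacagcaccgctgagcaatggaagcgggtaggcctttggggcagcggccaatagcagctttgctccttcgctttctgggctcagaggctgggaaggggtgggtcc
Pgam1: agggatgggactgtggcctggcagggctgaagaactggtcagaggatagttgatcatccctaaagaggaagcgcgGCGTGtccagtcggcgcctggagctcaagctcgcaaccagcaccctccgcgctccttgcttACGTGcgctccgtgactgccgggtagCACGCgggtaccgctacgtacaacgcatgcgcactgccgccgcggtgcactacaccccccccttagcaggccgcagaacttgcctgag
Eno3: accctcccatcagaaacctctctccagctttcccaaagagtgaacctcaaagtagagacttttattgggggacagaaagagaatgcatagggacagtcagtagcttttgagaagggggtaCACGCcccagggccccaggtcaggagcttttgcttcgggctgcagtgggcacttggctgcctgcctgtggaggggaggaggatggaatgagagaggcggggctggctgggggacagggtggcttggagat
Gpi1: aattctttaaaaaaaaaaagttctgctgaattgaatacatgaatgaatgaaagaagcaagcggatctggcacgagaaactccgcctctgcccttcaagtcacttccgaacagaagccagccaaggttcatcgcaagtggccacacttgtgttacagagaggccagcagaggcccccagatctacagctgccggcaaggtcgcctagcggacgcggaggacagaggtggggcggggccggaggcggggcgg
Pgk1 holds 2 matches, Pgam1 3, Eno3 1 and Gpi1 0. Those of Pgk1 begin 150 and 131 bases before the start.

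The mean profile of the 11 rows over the 6 libraries gave equal weight to the second Aldoa model with its few counts. Genes with a mean of at least 10 CPM were compared with it by the root-mean-square difference of centred log2 CPM. The 5 nearest are named. They were Aldoa-ps4 (0.0372), itself a copy of Aldoa, Slc7a1 (0.0467), Tnfrsf18 (0.0489), Mif-ps3 (0.0498) and Slc19a1 (0.0567). Slc7a1, an arginine and lysine transporter, had 107 ± 4.21 CPM in TIL and 27.5 ± 0.447 CPM in spleen. Tnfrsf18, the receptor GITR, had 276 ± 15.4 CPM in TIL and 73.7 ± 2.19 CPM in spleen, and Slc19a1, a folate carrier, had a log2 fold change of 2.05 (mean ± SD, n = 3 each).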

How the data were processed

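RNA was measured in 3 TIL and 3 spleen libraries, grouped by title. The deposited values are whole-number counts per gene, not normalized; STAR 2.3, featureCounts, bcl2fastq 2.20.0.422 and the mm10 build are listed in the submitters' processing notes, and reads were single, of 50 bases, per the labels' protocols. Sources used here give neither the annotation release, nor the strand setting, nor what was done with multiply matching reads. Symbols, exon lengths and coding sequences came from GENCODE M21, and 54587 of 55335 identifiers matched it with their version.

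Counts were tested with edgeR 4.0.16 in R 4.3.3 (TMM scaling, filterByExpr at a minimum count of 10 and total of 15, quasi-likelihood F-test and a test against 2-fold, Benjamini-Hochberg over 19783 genes, threshold 0.05). SE is the absolute log2 fold change over the square root of F. Intervals and floors cover counting error only. DESeq2 1.42.0 and limma 3.58.1 were alternatives, and shares were tested by exact permutation (SciPy 1.17.1). The procedure was tested on simulated data in which far fewer genes changed than were called here and all libraries had the same spread. Counts of every pair of libraries differed by more than sampling noise, so none was counted as a copy of another; repeat libraries from shared material could differ as much, and n = 3 counts libraries.

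All 10 enzymes and the tested genes for the same steps are named. Other pathway lists gave 2 names per direction, those of lowest p, marker lists the highest in each tissue, and a few were added to spell out small counts. The members and the 13 lists were chosen with earlier results of these data known.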

Additional observations from a re-analysis of the deposited data

How the results depend on the processing

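Under 17 other settings of scaling, filter, test and libraries, 10 enzyme rows were called higher and 0 lower each time; a minimum count of 50 left the second Aldoa model out. The 2-fold test passed for 10 rows in all settings but 1, scaling to the 12 expression standards, where Gpi1 missed it and 9 passed. That scaling moved the median log2 fold change of all genes to -0.14, against -0.02, and every enzyme with it. Among 309 recomputed values, each enzyme row's fold change kept its direction and, in the test against no change, its side of the threshold. The shares were compared by direction only, which they kept, since their permutation p cannot fall below 0.1. Of the counts of genes, 1 left 1.5 times its main value. That is the number called lower, 4668 of 12650 tested among protein-coding genes alone, against 7093 of 19783, where fewer genes were tested. Sizes of shares moved with length scaling: the difference in the Eno1 share of enolase was -0.996 percentage points by counts against -2.92 per length, and that in the summed share of the 11 rows 0.235 per length against 0.622 by counts. With the replicate number as a block, 6746 genes were called higher, 7026 lower and 1128 by over 2-fold, and 10 enzyme rows passed. The labels do not say that equal numbers mark 1 mouse, and deviations of equal-numbered libraries correlated at -0.0009, 0.0156 and 0.002. Without each library in turn, genes called higher numbered 6349 to 7191, lower 6549 to 7518 and by over 2-fold 1072 to 1240. The protein-coding and added-copies settings were chosen after seeing the data, and the added-copies setting does not test how reads with several matches were counted. Multi-matching reads limit the levels of genes with copies, and the few counts of the second Aldoa model, whose log2 fold change ran from 0.02 to 0.51, limit what it can show.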
